A study of Sus scrofa domesticus with 4 samples.

Results

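Genes of mitosis and cell proliferation were followed in the anterior lobe of the pituitary of pregnant and cyclic gilts. The set held 9 genes, chosen by name: TOP2A, CCNB1, CCNB2, CDK1, AURKA, AURKB, PCNA, CDC20 and BIRC5. Through their RefSeq accession, 13 of the 43603 probes on the array carried 1 of these names. They covered 8 of the 9 genes, and no probe was named PCNA by this match, so PCNA, the sliding clamp of DNA replication, was not analysed here. Of the 13 probes 12 passed the filter on dim probes, and with the brightest probe standing for each gene the 8 genes were among 18852 features tested.

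Cells enter mitosis when CDK1, a kinase, is activated by a B-type cyclin. Aurora kinases then drive spindle assembly and chromosome alignment, and the anaphase-promoting complex with its coactivator CDC20 marks the cyclins for destruction so that the chromosomes can part. Most of these transcripts rise in late interphase and fall after division, so in a whole tissue they are commonly read as a sign of dividing cells. In the adult anterior pituitary few cells divide at a time. In a tissue extract, fewer cells of a type and less RNA per cell cannot be told apart.

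The 8 animals were mature gilts of the cross of Large White and Polish Landrace from a private farm. The pregnant group held 4 animals, bred naturally and found to carry conceptuses, collected on days 15 to 16 of pregnancy. The cyclic group, the control, held 4 animals collected on days 15 to 16 of the estrous cycle, staged by their ovaries. RNA was read on 4 arrays with a pregnant animal in one colour and a cyclic animal in the other, and an array is thus a pair. By the label fields, Cy3 marked the pregnant animal on arrays 1 and 3, and the cyclic animal on arrays 2 and 4, with Cy5 for its partner. The text of the labelling protocol names a single orientation instead, under which every ratio on arrays 2 and 4 would change sign. The ratios in the authors' deposited table follow the label fields on all 4 arrays.

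Ratios are log2 of pregnant over cyclic, and a level is the log2 intensity of 1 animal's channel after normalization. The fitted estimate is given with the standard error of the limma model, which removes a gene-specific dye effect, and 4 arrays limit its precision. The share of spots well above background by the scanner's stricter mark ran from 50.4% to 66.5% per channel. Such spots are called above background from here on. The lowest share was that of the pregnant animal and the highest that of the cyclic animal of array 1. On arrays 2 to 4 the shares of pregnant and cyclic animals were 60.4% and 60.4%, 54.4% and 58.7%, and 56.2% and 52.5%. All 8 genes fixed as markers of secretory cells of the anterior lobe, PRL, GH1, POMC, CGA, LHB, FSHB, TSHB and POU1F1, were well above background in all 8 channels. OXT, the oxytocin precursor of the posterior lobe, was also above background in all 8.

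By the stricter mark detection was complete for 5 of the 8 genes. By the scanner's looser mark, a positive signal significantly over background, every probe of the set was detected in every channel. TOP2A, CCNB1, both probes of CDK1, both of BIRC5 and 2 of the 3 of AURKB were well above background in all 8 channels, which makes 8 of the 13 probes. The third AURKB probe was above background in 7 channels and missed it in the cyclic animal of array 4. CDC20 was above background in 7 channels, and so was the brighter AURKA probe, both falling short in the pregnant animal of array 1. CCNB2 was above background in the 4 cyclic animals and in 2 of the 4 pregnant ones, falling short in those of arrays 1 and 4. The second AURKA probe reached that mark in 3 of 8 channels and was not tested. No probe of the set was saturated or marked as an outlier on any array. The offset added to the background correction draws ratios of dim probes toward 0, which bears most on CCNB2, AURKA and CDC20.

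In the comparison of pregnant with cyclic glands, no gene of the set passed the test. Estimates lay between -0.13 for AURKA and 0.17 for CCNB1, with 5 genes above 0 and 3 below, where 54.3% of all features were below 0. The median of the 8 estimates was 0.041, beside -0.018 for all features. At limma's adjusted p under 0.05 there were 0 of the 8 genes and 0 of the 18852 features (0%). At an unadjusted p under 0.05 there were again 0 of the 8, where 7.21% of all features passed. With each probe tested on its own, 0 of the 12 probes had an unadjusted p under 0.05, where 8.00% of probes did. Levels of pregnant and cyclic animals overlapped for 8 of 8 genes, and did not overlap for 1.89% of features. The direction rested on single arrays: without array 1 or without array 4, 2 of the 8 estimates were below 0, without array 2 there were 7, and without array 3 there were 8. Within pairs the genes differed more, and for 7 of the 8 the sign changed from pair to pair.

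CDK1 (RefSeq NM_001159304), the kinase that starts mitosis, differed most within pairs. Its level in the pregnant animals of arrays 1 to 4 was 8.22, 9.58, 9.04 and 8.82, and in the cyclic animals 9.27, 8.51, 8.70 and 9.03. The pregnant animal was lowest of all 8 on array 1 and highest of all 8 on array 2, so the ranges of the groups overlapped. The ratios were -1.05, 1.06, 0.34 and -0.22. Their mean was 0.034, with an SD of 0.90 (n = 4 arrays). The limma estimate was 0.034 ± 0.31 (adjusted p = 0.980), and its 95% interval reached from 0.594-fold to 1.77-fold. The second CDK1 probe stood at -0.39, 0.81, 0.80 and -0.68, with the same sign as the first on 4 of 4 arrays.

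CCNB1 (NM_001170768), which encodes cyclin B1, the main mitotic partner of CDK1, followed the same order of signs. In the pregnant animals its level was 7.79, 8.49, 8.12 and 8.11, and in the cyclic animals 8.30, 7.85, 7.47 and 8.22. The highest level was in the pregnant animal of array 2 and the lowest in the cyclic animal of array 3. Ratios were -0.51, 0.64, 0.66 and -0.11, with an SD of 0.57 (n = 4 arrays). The estimate of 0.17 ± 0.23 (limma adjusted p = 0.840) had a 95% interval from 0.744-fold to 1.70-fold.

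CCNB2 (NM_001114282), the second B-type cyclin, was above background in the fewest channels among the tested genes. Its level in the pregnant animals was 6.48, 6.73, 6.95 and 6.67, and in the cyclic animals 6.56, 6.57, 6.54 and 6.96. The cyclic animal of array 4 lay apart from the other 3 cyclic animals. Ratios of -0.080, 0.16, 0.41 and -0.29 had the signs of CCNB1 on 4 of 4 arrays, with an SD of 0.30 (n = 4 arrays). Its limma estimate was 0.048 ± 0.14 (adjusted p = 0.933).

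TOP2A (NM_213884), the topoisomerase that untangles sister chromosomes before they part, had the second widest spread of the set. Its level in the pregnant animals was 7.84, 8.39, 8.31 and 7.97, and in the cyclic animals 8.22, 7.81, 7.52 and 8.50. Both the lowest and the highest level belonged to cyclic animals, those of arrays 3 and 4. The ratios of -0.39, 0.58, 0.79 and -0.52 had an SD of 0.67 (n = 4 arrays). The limma estimate was 0.12 ± 0.27 (adjusted p = 0.912), with a 95% interval from 0.676-fold to 1.74-fold.

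CDC20 (NM_001123094), the coactivator that turns on the anaphase-promoting complex, again had 1 sign on arrays 1 and 4 and the other on arrays 2 and 3. Its level was 6.87, 7.27, 7.03 and 7.12 in the pregnant animals and 7.35, 6.99, 6.81 and 7.34 in the cyclic ones. Cyclic animals held both ends of the range here as well. Ratios were -0.48, 0.28, 0.22 and -0.22, with an SD of 0.36 (n = 4 arrays), and the limma estimate was -0.050 ± 0.16 (adjusted p = 0.940).

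BIRC5 (NM_214141) encodes survivin, the subunit of the chromosomal passenger complex that also carries Aurora kinase B. Its level was 8.72, 9.61, 9.48 and 9.48 in the pregnant animals and 9.36, 9.09, 9.05 and 9.43 in the cyclic ones. The pregnant animal of array 1 lay below the other 7 animals. Ratios were -0.64, 0.52, 0.43 and 0.048, with an SD of 0.53 (n = 4 arrays), so that array 4 was close to 0. The second probe stood at -0.35, 0.18, 0.29 and -0.055, smaller than the first on arrays 1 to 3. The limma estimate was 0.089 ± 0.20 (adjusted p = 0.912).

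The Aurora kinases did not take part in this order of signs. AURKB (NM_213919) encodes the catalytic subunit of the passenger complex. The level of its brightest probe was 9.94, 9.87, 10.26 and 10.13 in the pregnant animals and 10.01, 10.34, 10.07 and 10.14 in the cyclic ones, so both groups spanned nearly the same range. Its ratios were -0.063, -0.47, 0.19 and -0.011, with an SD of 0.28 (n = 4 arrays). On array 2, where the 6 genes above were higher in the pregnant animal, AURKB was lower, and its 2 other probes were also below 0 there, at -0.11 and -0.35. On arrays 1 and 4 its 3 probes differed in sign, and the 2 other probes had estimates of 0.11 and -0.026. The limma estimate was -0.088 ± 0.12 (adjusted p = 0.843).

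AURKA (NM_001025225), the kinase of the spindle poles, varied least between the pairs. Its level was 6.74, 6.95, 6.70 and 7.12 in the pregnant animals and 6.86, 7.09, 6.91 and 7.18 in the cyclic ones. It was the 1 gene of the 8 with the same sign on all 4 arrays, as were 13.9% of all features. With arrays 2 and 4 turned it had 2 ratios on each side of 0, and 20.0% of features then had 1 sign. Ratios of -0.13, -0.13, -0.21 and -0.053 gave an SD of 0.064 (n = 4 arrays) and a limma estimate of -0.13 ± 0.096 (unadjusted p = 0.228, adjusted p = 0.696). Its 95% interval, from 0.771-fold to 1.08-fold, included no change. The sign did not hold for the dim second probe, at 0.028, -0.017, 0.15 and -0.32, nor in the authors' deposited table, where the brighter probe stood at 0.11, -0.35, 0.019 and -0.19.

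**Figure D1:**
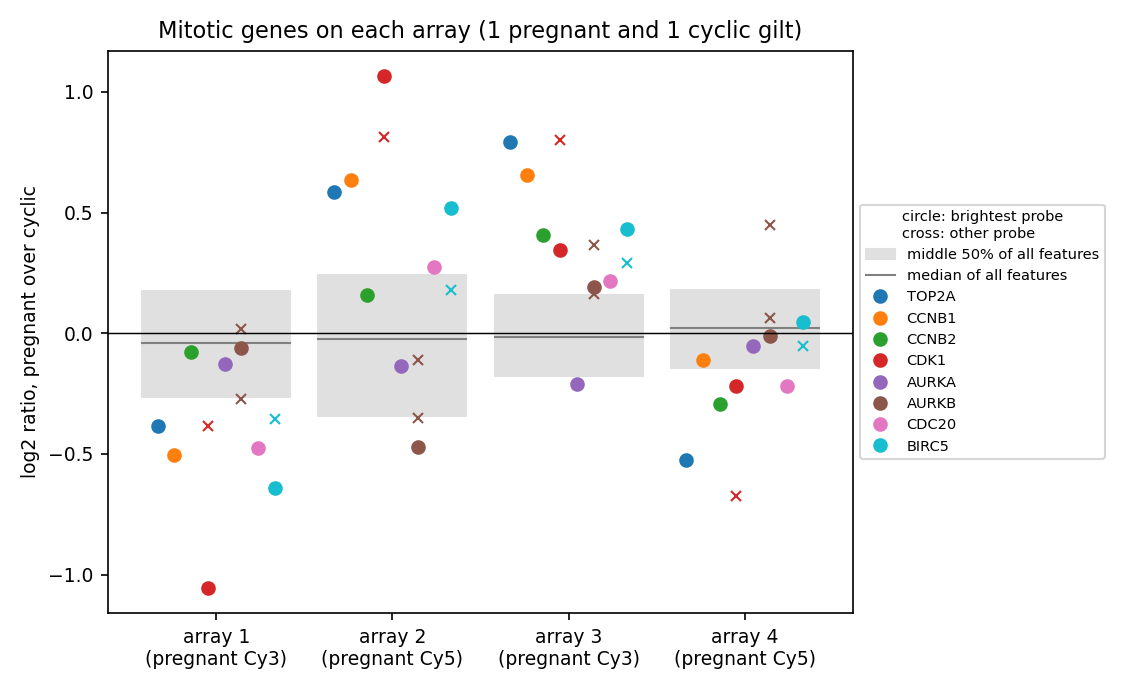
Log2 ratio of pregnant over cyclic (y axis) for the 8 genes on each of the 4 arrays (x axis). Circles are the brightest probe of a gene, crosses its other tested probes, and grey bands the middle 50% of all features. All 8 circles lie below 0 on array 1, 6 lie above 0 on array 2 and 7 on array 3, and 7 lie below 0 on array 4.

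**Figure D2:**
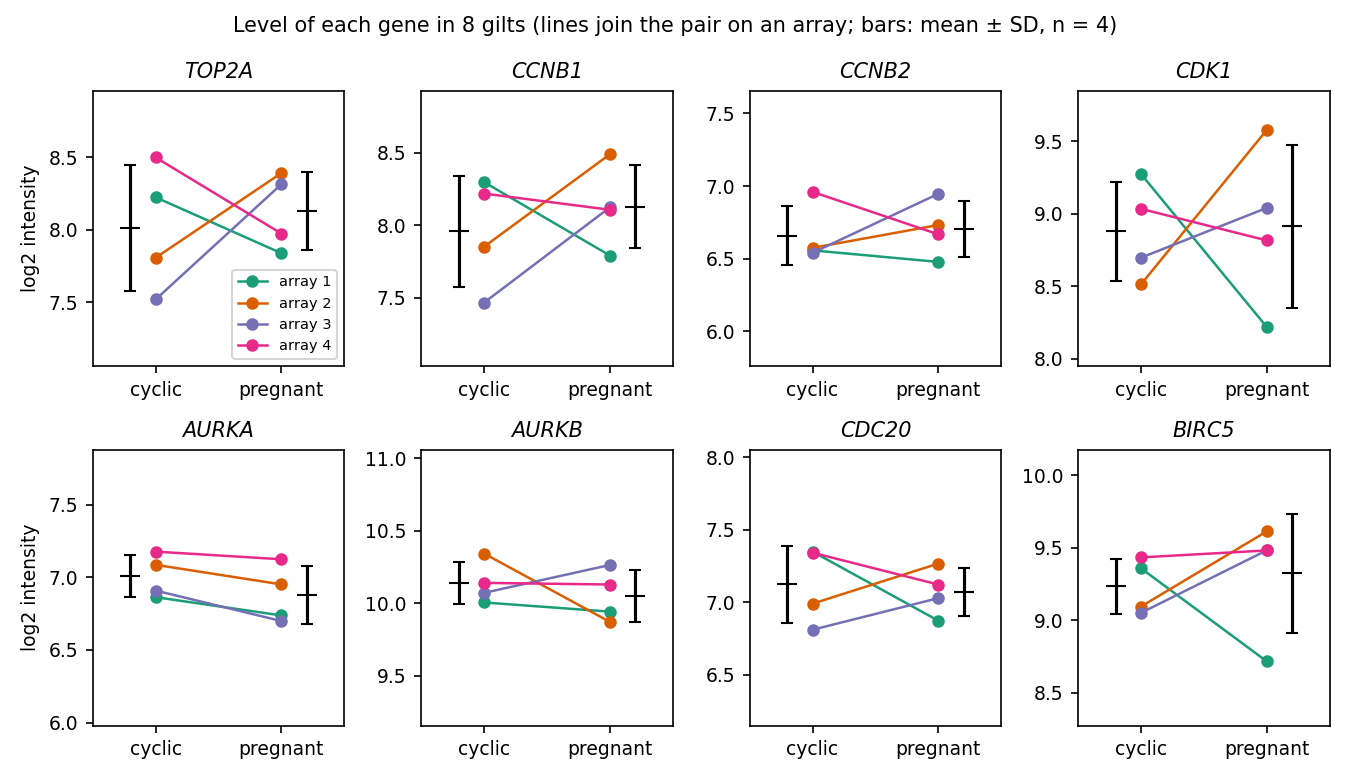
Log2 intensity (y axis) of each gene's brightest probe in the 4 cyclic and 4 pregnant gilts, with lines joining the pair on an array and black bars for the mean and SD of each group (n = 4). Lines slope both ways for every gene but AURKA, and the groups overlap for all 8 genes.

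Array by array, most of the genes shared a sign. On array 1 all 8 were below 0, as were 55.1% of all features, and 0 were above 0, where 44.9% of features were, with a median of -0.43 and a range from -1.05 to -0.063. On array 2 the 6 genes other than the Aurora kinases were above 0, beside 47.7% of features, and both Aurora kinases were below 0, beside 52.3%, with a median over the 8 of 0.40. On array 3 all but AURKA were above 0, beside 47.9% of features, and AURKA was below 0, beside 52.1%, with a median of 0.37. On array 4 all but BIRC5 were below 0, beside 46.4% of features, BIRC5 was above 0, beside 53.6%, and the median was -0.16. The median of all features lay between -0.039 and 0.022 on the 4 arrays.

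Below 0 on arrays 1 and 4 and above 0 on arrays 2 and 3 were 5 of the 8 genes, CDK1, CCNB1, CCNB2, TOP2A and CDC20. This order of signs was found in 2.01% of all features. It was picked out after the values had been seen and carries no test. Since arrays 1 and 3 share a dye orientation, as do arrays 2 and 4, each orientation held both signs. The authors' deposited table, made from the scanner software's own normalization, gave the same order for these 5 genes and for BIRC5. With median centring in place of loess the median of the 8 genes was -0.76, 0.38, 0.059 and 0.13 on arrays 1 to 4, so that array 4 turned. Features of the same intensity then stood at -0.35, -0.060, -0.24 and 0.23, and relative to these the genes were at -0.41, 0.44, 0.30 and -0.096. When all spots set the background parameters, the medians were -0.24, 0.033, 0.36 and -0.033.

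The spread between pairs was wide for some of these genes against the array as a whole. The SD of a feature's 4 ratios had a median of 0.27 over all features, with the middle 50% between 0.18 and 0.41, and a median of 0.44 over the 8 genes. The SD of CDK1 exceeded that of 97.9% of all features, that of TOP2A 93.5%, that of CCNB1 88.9% and that of BIRC5 85.9%. CDC20 followed at 68.1%, CCNB2 at 57.4% and AURKB at 52.2%. AURKA was at 2.19%. Against features of similar intensity CDK1 stood at 96.5%, TOP2A at 91.4%, CCNB1 at 84.8%, BIRC5 at 81.6% and AURKB at 43.8%, each lower than before. CCNB2 moved up to 83.1%, CDC20 to 74.8% and AURKA to 3.34%. With arrays 2 and 4 turned, as the labelling protocol would have it, CDK1 had an SD of 0.78 and stood at 96.2%, TOP2A at 93.5%, CCNB1 at 89.9% and BIRC5 at 83.4%. Against features of similar intensity they then stood at 92.9%, 89.8%, 85.6% and 75.9%. The low place of AURKA rested on the orientation, since its SD was then 0.16 and its place 24.6%.

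**Figure D3:**
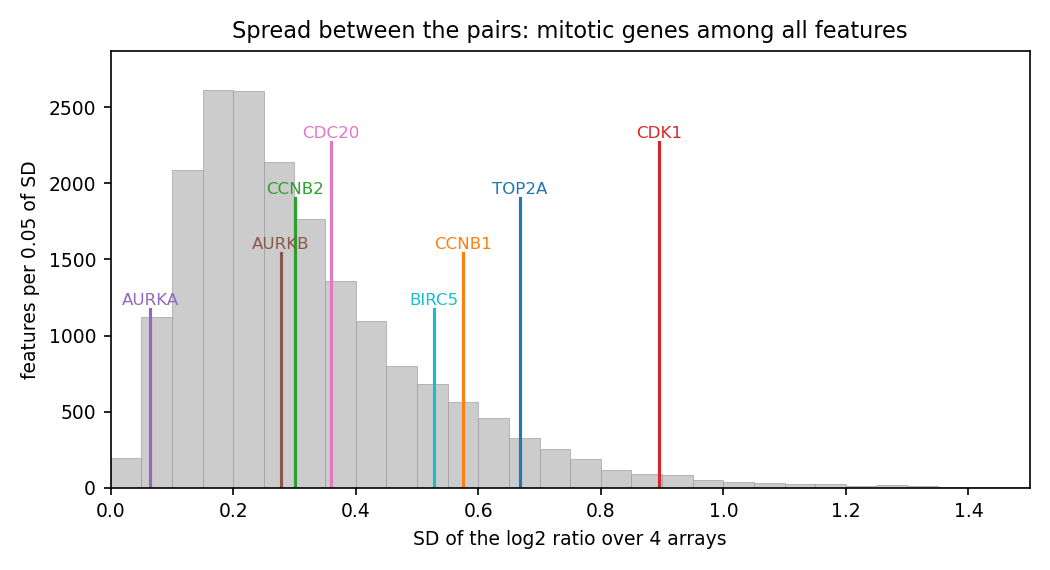
Number of features (y axis, per 0.05 of SD) by the SD of their log2 ratio over 4 arrays (x axis), with coloured lines at the 8 genes. CDK1 stands at 0.90 and AURKA at 0.064, beside a median of 0.27 over all features, and 72 features beyond 1.5 are not drawn.

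Spots of 1 probe on 1 array give a measure of technical spread within an array. The 50 probes spotted repeatedly had a median SD between their spots of 0.098 to 0.13 log2 on the 4 arrays. The 90th percentile of that SD was 0.17 to 0.21. None of them was a probe of the set. The SD between pairs was above the range of the medians for 7 of the 8 genes and below it for AURKA, at 0.064. Spots on 1 array hold no spread from labelling or hybridisation between arrays. How much of the spread between pairs comes from the animals was therefore not tested. Different probes of 1 gene differed by up to 0.67 on an array for CDK1, 0.46 for AURKB and 0.34 for BIRC5. For CDK1 the gap was smaller than both probes' ratios on array 2 alone, so its size on the other arrays is uncertain while its sign was shared.

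Over the 8 animals the levels of 6 genes varied together. After centring within each dye, Pearson's r among TOP2A, CCNB1, CCNB2, CDK1, CDC20 and BIRC5 lay between 0.58 and 0.95 over their 15 pairs, with a median of 0.84, and Spearman's rho between 0.67 and 0.95. TOP2A and CCNB1 were most alike, with r = 0.946 (exact permutation p = 2.98e-04, adjusted p = 0.00833 over 28 pairs of genes) and rho = 0.929 (exact permutation p = 0.00223, adjusted p = 0.0313). Without the 2 animals farthest from the median of TOP2A, r was 0.943. Of the 15 pairs 8 had an adjusted p under 0.05 by the exact permutation test of r and 7 by that of rho. The permutations moved all 8 animals freely, though pairs share an array and values were centred within dye. Their p-values may thus be too small and are given as a description. The share of other gene pairs on the array that would pass was not measured, so these counts have no background beside them. Leaving out 2 animals in the same way gave values from 0.25, for CCNB2 with CDC20, to 0.965, for TOP2A with CDK1.

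Between these 6 genes and the Aurora kinases r lay between -0.23 and 0.38 over 12 pairs, with a median of 0.13, and rho between -0.38 and 0.43. By exact permutation 0 of these 12 pairs had an adjusted p under 0.05, with the lowest adjusted p at 0.607. Leaving out 2 animals in the same way moved these values to between -0.58 and 0.56, so their size is poorly fixed. AURKA and AURKB had r = 0.361 (exact permutation p = 0.375, adjusted p = 0.618) and rho = 0.214 (exact permutation p = 0.619, adjusted p = 0.809). Leaving out 2 animals moved that r to 0.81. The 2 animals of an array share its hybridisation, and the permutations do not take account of this or of the centring. This holds for every permutation p given here. The grouping into 6 and 2 genes was made after the values were seen. The correlations use no label of pregnant or cyclic, so which animal was which does not bear on them.

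**Figure D4:**
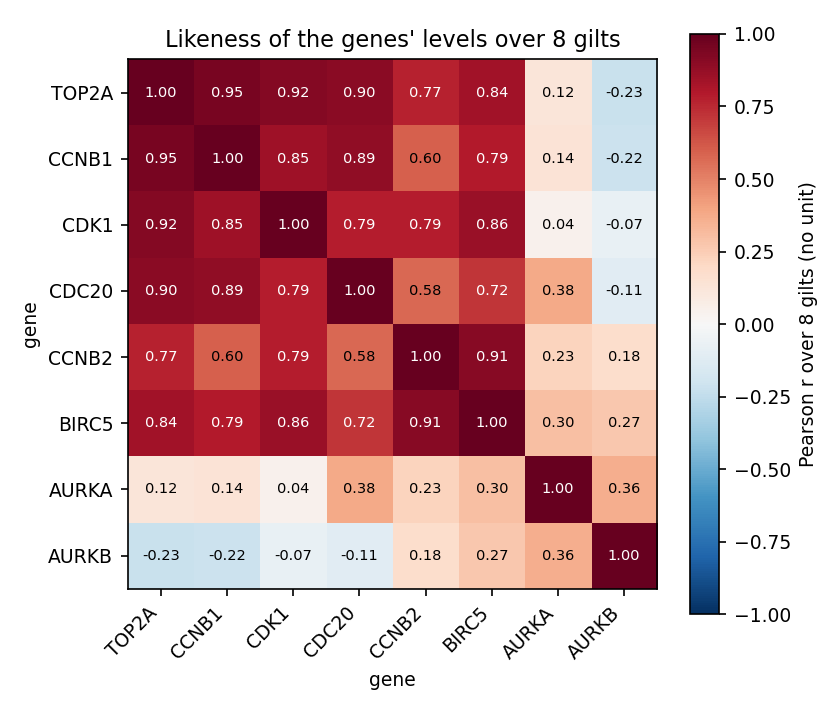
Pearson's r (colour and printed value, no unit) between the levels of each pair of genes over 8 gilts, centred within each dye. The 6 genes other than the Aurora kinases form a block from 0.58 to 0.95, while AURKA and AURKB stay between -0.23 and 0.38 with them.

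By the mean centred profile of the 8 genes, the cyclic animal of array 4 stood highest at 0.24, followed by the pregnant animals of array 2 at 0.20 and array 3 at 0.13. Next came the cyclic animal of array 1 at 0.075 and the pregnant animal of array 4 at 0.012, then the cyclic animal of array 2 at -0.079. Lowest were the pregnant animal of array 1 at -0.29 and the cyclic animal of array 3 at -0.28. Animals of both groups thus stood at both ends. In the pregnant animal of array 1, 0 of the 8 genes were above their mean, against 7 of 8 in the cyclic animal of array 4.

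Of the 2398 other genes with a symbol, the 5 whose levels followed this profile most closely over the 8 animals were PBK, FSHB, CYP39A1, PCLAF and HMGB1, with Pearson's r of 0.963, 0.929, 0.922, 0.899 and 0.877. The middle 50% of those genes lay between -0.30 and 0.25. PBK encodes a mitotic protein kinase, and its ratios were -0.90, 0.79, 0.36 and -0.23. PCLAF encodes a protein that binds PCNA during DNA replication, and its ratios were -1.13, 0.52, 0.86 and -0.57. FSHB codes for the hormone-specific chain of follicle-stimulating hormone and had ratios of -0.38, 0.35, 2.53 and -0.84. CYP39A1 is an oxysterol hydroxylase and HMGB1 a chromatin protein. They were ranked among many genes over 8 animals that share 4 arrays, and the likeness is a description.

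Markers of other cells gave these values beside the pattern of the mitotic genes. The 8 secretory cell markers had medians of -0.55, 0.49, -0.52 and -0.10 on arrays 1 to 4, so their median had the opposite sign on array 3. Single hormone genes differed widely within pairs, TSHB most, from -4.20 to 4.48. The 3 endothelial markers measured, PECAM1, CDH5 and VWF, had medians of -0.29, 0.25, -0.34 and 0.033. The 3 measured of the folliculostellate and stem cell list, SOX2 and SOX9 among them, had medians that stood at 0.22, -0.26, 0.12 and -0.069. SOX9 was above background in 1 of 4 pregnant and 2 of 4 cyclic animals, and the medians of arrays 1 to 3 are its ratios. The 5 measured leukocyte markers had medians of 0.20, 0.16, 0.073 and -0.10. Of these, CD2 was above background in 1 of 8 channels and another marker in none. The posterior and intermediate lobe list, OXT, AVP and PCSK2, had medians of -0.67, -0.55, 0.025 and -0.052, with AVP above background in 3 channels. None of the red cell markers had a named probe. The part of these cells in the pattern was not tested.

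Other genes of the cell cycle were drawn from 5 lists of 120 names, of which 23 had a named probe and 20 were tested. Above 0 were 12 and below 0 were 8, with a median of 0.038. At an unadjusted p under 0.05 were 2 higher (3.03% of all features) and 1 lower (4.18% of all features), and 0 passed limma's adjusted threshold. The order of signs seen in the mitotic genes was found in 1 of the 20, CDKN3, beside 2.01% of features. CDKN3, a phosphatase that acts on cyclin-dependent kinases, stood at -0.057, 0.40, 0.11 and -0.0086, and is named here for that order after its values were seen. Few genes on these lists carried a name on the array, so the counts per list are small.

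Of the cyclins and kinases that act before DNA synthesis, 3 of 15 were tested. CCND2, a D-type cyclin that couples growth signals to the cycle, was at 0.53, 0.40, 0.23 and 0.28, with an estimate of 0.36 ± 0.11 (limma unadjusted p = 0.0192, adjusted p = 0.647). CCND3, its relative, went the other way at -0.34, -1.14, -0.30 and -0.16, with an estimate of -0.48 ± 0.18 (limma unadjusted p = 0.0415, adjusted p = 0.647). Each had 1 sign on 4 of 4 arrays, and array 2 was far lower than the others for CCND3. Of 15 alternative settings, CCND2 kept a limma unadjusted p under 0.05 in 8 and CCND3 in 9. Several of these settings reuse the same ratios and leave the estimate unchanged, so the counts show little about stability. With the single dye orientation CCND2 stood at 0.019 and CCND3 at 0.16. CDK4, their partner kinase, was the third gene tested, at 0.11 ± 0.47.

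Of 30 DNA replication genes 2 were tested. PRIM1, the primase subunit that starts new strands, stood at -0.081 ± 0.095 (limma adjusted p = 0.805). Of 35 genes of the spindle, kinetochore and cytokinesis 3 were tested. STMN1, which destabilises microtubules, stood at 0.12 ± 0.10, and its 4 other probes shared the sign. MYBL2, a transcription factor of cell cycle genes, stood at -0.24 ± 0.24, with array 3 at 0.75 and the other 3 arrays between -0.68 and -0.46. Neither passed limma's test (adjusted p = 0.742 and 0.777).

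Of 21 genes listed under the ubiquitin control of mitosis and the CDK1 switch 4 were tested. CKS1B, a small subunit that binds cyclin-dependent kinases, stood at 0.15 ± 0.10 and CDC25C, the phosphatase that activates CDK1, at 0.18 ± 0.13, with limma adjusted p of 0.674 and 0.688. Of 19 genes listed as inhibitors of the cycle 8 were tested, and 5 were above 0. GADD45A, a stress-induced inhibitor of the cycle, stood at 0.39, 1.09, -0.40 and 0.69, with an estimate of 0.44 ± 0.17 (limma unadjusted p = 0.0435, adjusted p = 0.647). Its array 3 was the 1 of 4 below 0. It kept a limma unadjusted p under 0.05 in 6 of 15 alternative settings, several of which leave its estimate unchanged. When all spots set the background parameters it stood at 0.10 (limma unadjusted p = 0.571).

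**Figure D5:**
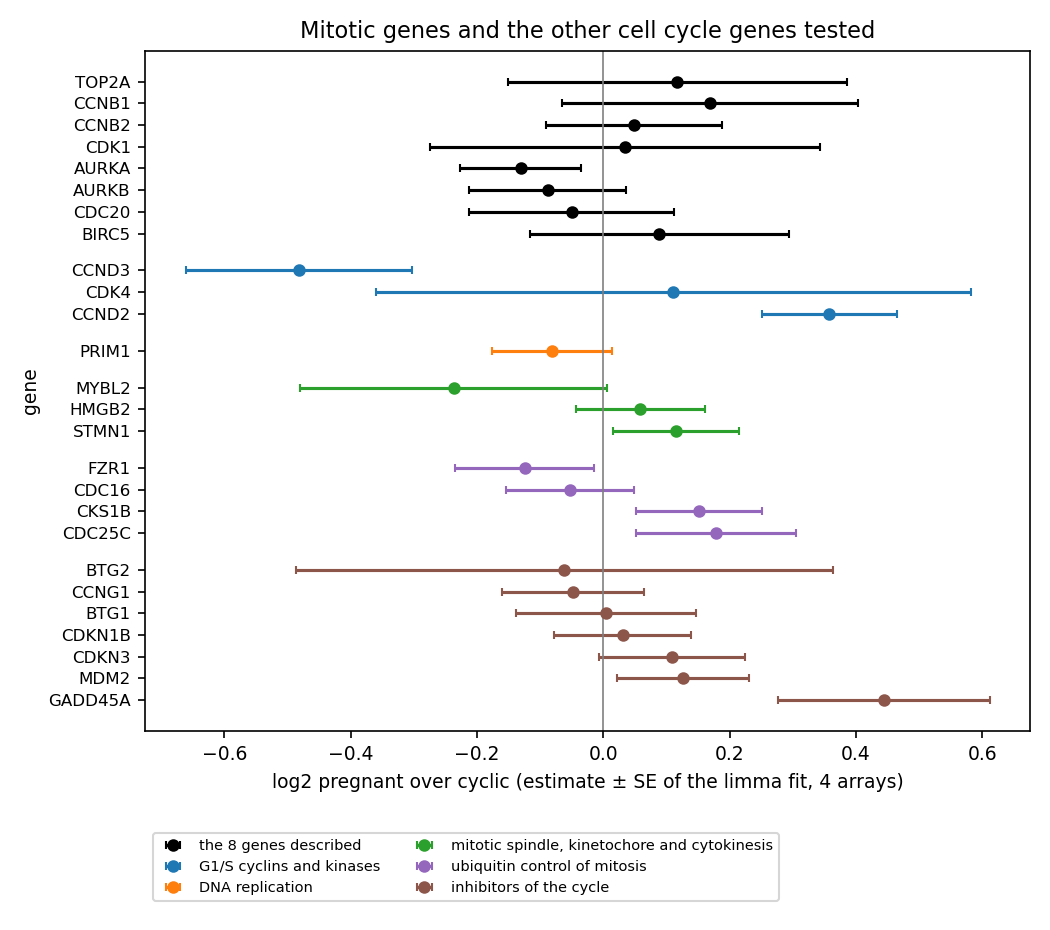
Estimated log2 ratio of pregnant over cyclic with its standard error (x axis, limma fit over 4 arrays) for the 8 mitotic genes and 18 of the 20 other cell cycle genes tested (y axis), coloured by list. The other two are not reported here. The 8 mitotic genes lie between -0.13 and 0.17, and CCND3 at -0.48 and GADD45A at 0.44 are the outermost of those drawn.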

How the data were processed

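Total RNA with an integrity number between 7.5 and 10 was hybridised as 1 pregnant and 1 cyclic animal per array, on 1 slide scanned in 1 run, per the labels' protocols and the file headers. The scanner files name Agilent Feature Extraction 10.7.3.1 in their headers. As deposited, they give for both channels the median intensity of a spot and of its surroundings, the software's processed intensity, and the log10 ratio of red to green. Log2 ratios stand in the authors' value table. With the dyes read from the label fields, these equalled log2 of processed pregnant over processed cyclic signal within 0.001. This held for 43553 of 43553 probes spotted once on each array. Column medians were 0.150, -0.0102, 0.0650 and -0.0726, so no further centring was found.

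The analysis used R 4.3.3, limma 3.58.1, jsonlite 2.0.0 and data.table (version 1.17.8). Normexp (offset 50) corrected the background, with parameters from spots not marked as outliers, and loess the ratios (span 0.3, control spots at weight 0). Of 43603 probes 25138 were kept, those marked well above background in 4 or more of the 8 channels, and named through RefSeq accessions of Sscrofa11.1 (6700 probes, 3029 genes). The brightest probe stood for a gene or transcript identifier. Limma's lmFit and eBayes estimated the ratio with a dye term per gene. P-values were adjusted by Benjamini-Hochberg across the whole table and called at 0.05. Levels were taken after Aquantile scaling between arrays. The fit was tested on simulated data.

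The genes and lists were chosen with earlier results of these data known. Named from each other list were genes at an unadjusted p under 0.05, or the 2 of lowest p where fewer passed. Some genes of these lists are not reported here. The labels count 8 gilts and state no pooling, and p-values measure the spread between these 8 animals. Alternatives to the background, normalization, dye, filter and probe choices, and leaving out each array, are given in the closing section.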

Additional observations from a re-analysis of the deposited data

Results flagged for a closer look

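Of 39 groups of 4 values examined, 3 held a value far from the other 3, where chance gives about 1 in 20 groups. The level of CCNB2 in the cyclic animal of array 4 was 6.96, beside 6.54 to 6.57 in the other cyclic animals. The level of BIRC5 in the pregnant animal of array 1 was 8.72, beside 9.48 to 9.61 in the other pregnant animals. The ratio of MYBL2 on array 3 was 0.753, beside -0.68 to -0.46 on the other arrays.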

How the results depend on the processing

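Under 15 alternative settings, 0 of the 8 mitotic genes passed limma's adjusted threshold or an unadjusted p of 0.05, the lowest unadjusted p being 0.0696 for CCNB1 without array 1. Signs were not stable: of 117 estimates 97 kept their sign and 20 turned. Of the 8 genes AURKA alone kept it in every setting run for it (14, without that of all 8 channels), from -0.19 to -0.037. Some settings left every estimate of the 8 genes, and those of CCND2, CCND3 and GADD45A, unchanged: no dye term, separate channels, other filters and every probe as a feature. The mean of probes also left genes with a single tested probe unchanged. Signs kept there were fixed beforehand and show no stability. With background parameters from all spots CDK1 stood at -0.082, BIRC5 at -0.0075 and MYBL2 at 0.014. With median centring CDK1 stood at -0.062. With the single dye orientation, fitted without a dye term, CCNB1 stood at -0.094, CDK1 at -0.39, AURKB at 0.15, BIRC5 at -0.19, CCND3 at 0.16, STMN1 at -0.099, MYBL2 at 0.27, CKS1B at -0.25, CDC25C at -0.091 and GADD45A at -0.45, while CCND2 stood at 0.019 (unadjusted p = 0.919). The unadjusted p of CCND2 was also above 0.05 with background parameters from all spots (0.120), processed signals (0.0655), median centring (0.0613) and separate channels (0.126), and that of GADD45A with these settings and with no dye term (0.0674 to 0.571).

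Leaving out 1 array at a time and keeping the dye term, TOP2A ranged from -0.18 to 0.41, CCNB1 from -0.12 to 0.46, CCNB2 from -0.074 to 0.17, CDK1 from -0.32 to 0.38, AURKB from -0.20 to 0.027, CDC20 from -0.22 to 0.12, BIRC5 from -0.18 to 0.36 and MYBL2 from -0.60 to 0.12. The median of the 8 genes ranged from -0.16 without array 3 to 0.26 without array 1. It was -0.0060 with background parameters from all spots, -0.027 with median centring and -0.058 with the single orientation, so its sign turned there.

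Features at an unadjusted p under 0.05 numbered 1360, between 617 without array 2 and 2174 without array 4 (638 without array 1), and 2335 with no filter on dim probes. Limma called 2 features at the adjusted threshold with an offset of 16 and 2 in the separate-channel fit, none of them a mitotic gene. The order of signs was shown by 5 genes (2.01% of features), by 6 with background parameters from all spots (3.64%), processed signals (2.20%) or the mean of probes (1.98%), by 2 with median centring (0.615%), and by 3 of the 5 genes above background in all 8 channels (1.75%). With the single orientation, which turns arrays 2 and 4, it was shown by 0 (7.65%). The median r among the 6 genes lay between 0.78 and 0.85 over the settings tried, and that with the Aurora kinases between 0.10 and 0.34, the latter with background parameters from all spots. The settings tried for r were the main one, background parameters from all spots, an offset of 16, processed signals and median centring. Leaving out an array was not tried for r. The cause of these changes was not tested. All 4 arrays lay on 1 slide scanned in 1 run, so no block for slide or scan could be fitted. The ratio of an array is itself the paired comparison, so no further block was fitted. CCNB2, AURKA and CDC20 lay close to background, which limits what their ratios can show.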
